A study of Mus musculus with 17 samples.

Results

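The genes that lie beside Chga, the gene deleted in these mice, were read in prefrontal cortex RNA. The 10 genes were named by their place on mouse chromosome 12, with earlier results of these data known. Cpsf2, Slc24a4, Rin3, Lgmn and Golga5 lie on the side of lower coordinates, and Itpk1, Moap1, Ubr7, Btbd7 and Unc79 on the other. They are a part of the 34 genes tested within 1 Mb of Chga. All 10 were found among the 56953 genes of the count table, and all 10 passed the filter on low counts, which left 23062 genes. The question was whether the neighbours of Chga were at another level when Chga was gone.

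RNA was sequenced from 5 WT, 6 hTau and 6 CgA-KO/hTau mice, each 8 months old by the labels, on the B6C3F1/J background; 1 figure legend of the study gives another age. hTau mice, called PS19 in the paper, are heterozygous for a transgene of human Tau that carries P301S and is driven by the Prnp promoter. CgA-KO/hTau mice carry the same transgene and lack chromogranin A congenitally and throughout the body, by an allele made with Cre-loxP in mice of mixed 129/SvJ and C57BL/6 origin that were then backcrossed to C57BL/6J and to B6C3F1/J. WT mice carry neither change, no mice with the Chga deletion alone were sequenced here, and both sexes were used without the sex being stated beside each library.

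Chga encodes chromogranin A, an acidic protein that is stored with catecholamines and neuropeptides in dense-core vesicles. Its neighbours do varied work: Itpk1 makes inositol phosphates, Golga5 and Rin3 serve membrane traffic, Lgmn and Ubr7 act in protein breakdown, Slc24a4 and Unc79 in ion flux, Cpsf2 in mRNA 3' end formation, Moap1 in apoptosis and Btbd7 in tissue branching. RIN3 and SLC24A4 give their names to a human risk locus of Alzheimer's disease, and legumain, the product of Lgmn, can cleave both Tau and the amyloid precursor protein.

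The promoter windows of 4 of the genes are shown because the results turn on them: those of the nearest neighbour on each side, Golga5 and Itpk1, that of Slc24a4, the member that differed between genotypes, and that of Cpsf2, the member whose CgA-KO/hTau libraries fell into separate sets. Each runs from 250 bases before to 50 bases after the RefSeq start in GRCm38.p6, 5' to 3' on the strand of the gene, and lies at chr12:102468884-102469183 (plus strand) for Golga5, chr12:102704820-102705119 (minus strand) for Itpk1, chr12:102128477-102128776 (plus strand) for Slc24a4 and chr12:101975724-101976023 (plus strand) for Cpsf2. Capitals mark matches to short motifs on either strand, and neighbouring matches can overlap. The motif known for placing the start of transcription is spelled TATAAA here. The motif bound by the trimeric factor NF-Y is spelled CCAAT here. The motif shared by cyclic AMP response elements is spelled TGACG here. The motif bound by Sp1 and its relatives is spelled GGGCGG here.
Golga5: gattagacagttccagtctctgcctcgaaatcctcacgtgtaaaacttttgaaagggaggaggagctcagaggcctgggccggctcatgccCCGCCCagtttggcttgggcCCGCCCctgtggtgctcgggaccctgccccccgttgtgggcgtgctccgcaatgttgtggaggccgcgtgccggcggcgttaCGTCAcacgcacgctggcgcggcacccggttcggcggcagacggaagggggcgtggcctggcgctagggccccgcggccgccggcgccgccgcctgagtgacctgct
Itpk1: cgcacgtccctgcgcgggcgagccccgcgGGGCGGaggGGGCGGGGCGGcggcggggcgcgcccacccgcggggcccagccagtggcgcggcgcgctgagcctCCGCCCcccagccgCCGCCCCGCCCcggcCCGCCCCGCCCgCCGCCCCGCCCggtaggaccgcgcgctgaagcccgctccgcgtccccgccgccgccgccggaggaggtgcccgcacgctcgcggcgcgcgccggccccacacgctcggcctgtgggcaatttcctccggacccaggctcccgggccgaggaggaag
Slc24a4: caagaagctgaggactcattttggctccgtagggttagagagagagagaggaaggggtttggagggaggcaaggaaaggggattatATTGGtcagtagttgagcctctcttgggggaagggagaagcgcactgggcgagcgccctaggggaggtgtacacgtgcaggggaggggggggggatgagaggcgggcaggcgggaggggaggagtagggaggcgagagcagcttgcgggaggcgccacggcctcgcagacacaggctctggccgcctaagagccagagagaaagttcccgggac
Cpsf2: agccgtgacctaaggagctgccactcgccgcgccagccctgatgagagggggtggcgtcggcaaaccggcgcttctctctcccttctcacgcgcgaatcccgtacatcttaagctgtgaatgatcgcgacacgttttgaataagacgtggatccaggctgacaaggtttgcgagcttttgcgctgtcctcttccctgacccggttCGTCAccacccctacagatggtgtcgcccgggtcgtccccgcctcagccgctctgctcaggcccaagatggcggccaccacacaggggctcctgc

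All 10 genes matched a window, and the windows were rich in G and C, at 59.7% in Unc79 to 85.3% in Itpk1 against a median of 52.7% over the 32851 mouse windows. None of the 10 held TATAAA, which 13.6% of all windows hold. GGGCGG was found in 7 of the 10 against 35.7% of all windows, TGACG in 5 against 20.8%, and CCAAT in 3 against 37.4%. The Itpk1 window held GGGCGG 10 times, and those of Slc24a4, Cpsf2 and Unc79 did not hold it. These matches describe letters in a window and not sites that a factor occupied.

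The library totals ran from 8838334 counts in WT replicate 4 to 227651681 in hTau replicate 6, a 25.8-fold range. Every member was counted in every library, from 26 counts of Rin3 in the library where it was lowest to 26162 of Lgmn where it was highest. The labels were checked at Chga (ENSMUSG00000021194.7, GRCm38 chromosome 12, 102554969 to 102565028, plus strand), whose count was 0 in all 6 CgA-KO/hTau libraries and whose level was 152 to 180 CPM (counts scaled to library size by TMM, as in the methods) in WT and 162 to 177 CPM in hTau. A count of 0 allows at most 0.260 CPM in the shallowest CgA-KO/hTau library, taking 3 fragments as 9 of the deposited counts, a limit that covers counting error only. Cortical excitatory neuron markers were present in every genotype, with summed levels of 927 to 2308 CPM in WT, 1559 to 1788 CPM in hTau and 1022 to 1633 CPM in CgA-KO/hTau. The summed level of 9 striatal neuron markers was 626 to 2472 CPM in WT, 118 to 167 CPM in hTau and 158 to 1428 CPM in CgA-KO/hTau. Of these 9 markers, 9 were lower in hTau than in WT and 7 were higher in CgA-KO/hTau than in hTau at an adjusted p under 0.05. Ddx3y, which lies on the Y chromosome, exceeded 1 CPM in 3 libraries of every genotype, those numbered 1 to 3, and was below it in the rest. The mitochondrial share of counts was 13.8% to 18.2% in CgA-KO/hTau replicates 1 to 3, 3.84% to 10.9% in replicates 4 to 6, 3.53% to 7.94% in WT and 2.56% to 4.59% in hTau.

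The neighbours differed widely in level. Per kilobase of exon, Lgmn was the highest in hTau at 50.0 ± 2.68 CPM (SD, n = 6), and Rin3 the lowest at 0.422 ± 0.0401 CPM (SD, n = 6). Moap1, Itpk1, Ubr7 and Cpsf2 followed Lgmn at 13.9, 13.3, 12.3 and 12.1 CPM per kilobase, and their libraries overlapped, so that no order among them can be read. Golga5 came next at 8.72 ± 0.589 CPM per kilobase (SD, n = 6). Unc79 and Slc24a4 overlapped at 5.62 and 5.46 CPM per kilobase, and Btbd7 stood at 1.94 ± 0.0942 CPM per kilobase (SD, n = 6). In WT the same genes stood at either end, with Lgmn at 44.5 ± 1.07 and Rin3 at 0.453 ± 0.0909 CPM per kilobase (SD, n = 5), and Slc24a4 at 8.51 ± 2.25 CPM per kilobase overlapped both Golga5 and Unc79.

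When CgA-KO/hTau was compared with hTau, none of the 10 members passed the test. The comparison asks what the loss of chromogranin A goes with in cortex that carries the Tau transgene. The deleted allele was made in mice of mixed strain origin. For genes linked to Chga, its loss and strain sequence carried with the allele cannot be told apart. Of the 10 members, 0 had an adjusted p under 0.05, against 9.72% of all genes tested (quasi-likelihood test of edgeR, adjusted by Benjamini-Hochberg over 23062 genes). None had an unadjusted p under 0.05 (0 of 10), and DESeq2 and limma voom with sample quality weights each called 0. The libraries of the genotypes overlapped for every member, where they did not overlap for 6.63% of all genes. The median log2 fold change of the members was -0.06 and that of all genes 0.03, and the median size, without the sign, was 0.11 against 0.29. For the other 24 genes tested within 1 Mb of Chga, the median size was 0.35. The smaller size thus belongs to the members and not to the neighbourhood as a whole. For 8 of the 10 the 95% interval lay within 0.5 of 0 on the log2 scale, and for all 10 it lay within 1.

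**Figure D1:**
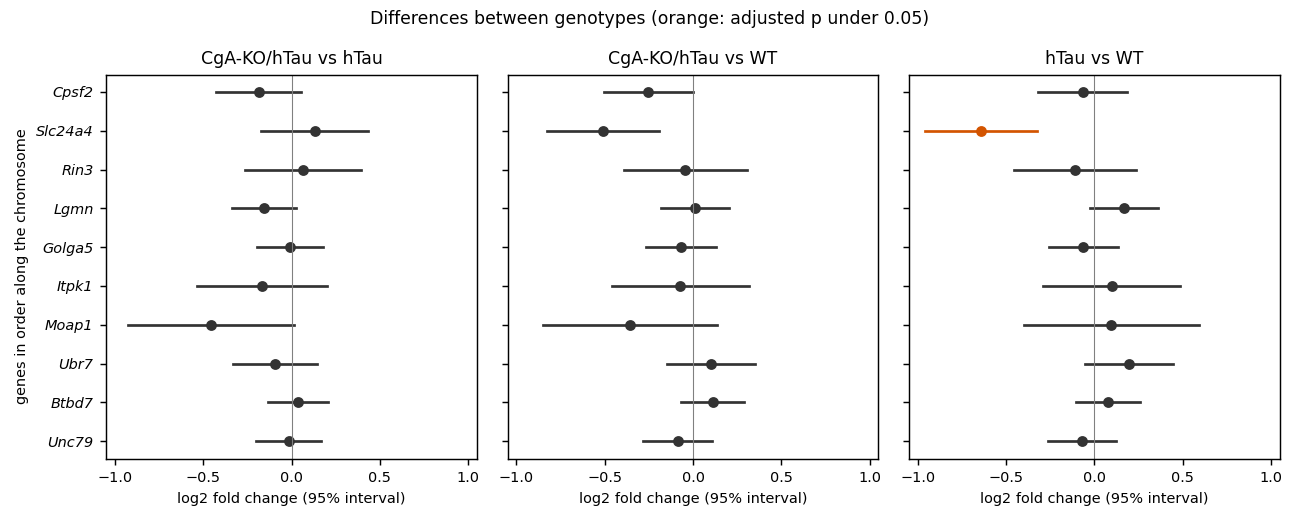
Log2 fold changes (dots) with 95% intervals (lines) of the 10 genes, in their order along the chromosome, for the 3 comparisons of genotypes. The only orange point, with an adjusted p under 0.05, is Slc24a4 in hTau vs WT at -0.64, and 8 of the 10 intervals in CgA-KO/hTau vs hTau lie within 0.5 of 0.

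Itpk1 (ENSMUSG00000057963.10, 102568582 to 102704930, minus strand), an inositol phosphate kinase, ends 3554 bases from Chga and is the nearest gene. It was at 43.9 to 46.7 CPM in 4 WT libraries and at 23.7 CPM in WT replicate 4. In hTau, the lowest, median and highest libraries were at 42.1, 44.3 and 45.0 CPM, and in CgA-KO/hTau at 23.1, 38.1 and 51.5 CPM. The CgA-KO/hTau libraries thus reached both below and above all hTau libraries. The log2 fold change was -0.17 (95% interval -0.54 to 0.20, adjusted p = 0.561, edgeR), so that changes from -31.1% to 14.8% were within the error.

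Golga5 (ENSMUSG00000021192.17, 102469135 to 102497907, plus strand), the gene of a golgin that tethers vesicles at the Golgi, is the nearest neighbour on the other side, 57062 bases away. Its levels were 30.3, 31.8, 32.1, 31.4 and 31.3 CPM in WT. They were 26.8, 30.5 and 32.1 CPM in hTau and 25.5, 29.3 and 37.5 CPM in CgA-KO/hTau for the lowest, median and highest library. Both genotypes lay around the WT level, and the difference between them was the smallest of the members, with a log2 fold change of -0.01 (95% interval -0.19 to 0.18, adjusted p = 0.971, edgeR).

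Lgmn (ENSMUSG00000021190.15, 102394084 to 102439813, minus strand) encodes the lysosomal protease legumain. It was at 99.7, 106, 102, 105 and 104 CPM in WT. The lowest, median and highest libraries were at 110, 115 and 126 CPM in hTau and at 86.3, 108 and 120 CPM in CgA-KO/hTau. The hTau libraries all lay above the WT libraries, and the CgA-KO/hTau libraries spanned both. The log2 fold change from hTau to CgA-KO/hTau was -0.16 (95% interval -0.34 to 0.03, adjusted p = 0.252, edgeR).

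Rin3 (ENSMUSG00000044456.17, 102283048 to 102390855, plus strand), an exchange factor for the Rab5 group of endosomal GTPases, was the least abundant member. Its levels were 2.20 to 3.84 CPM in WT. They were 2.51, 2.93 and 3.24 CPM in hTau and 2.02, 3.03 and 3.60 CPM in CgA-KO/hTau for the lowest, median and highest library. The genotypes overlapped throughout, and the log2 fold change was 0.07 (95% interval -0.26 to 0.39, adjusted p = 0.821, edgeR).

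Moap1 (ENSMUSG00000096458.8, 102742230 to 102743661, minus strand), whose product binds the cell-death protein Bax, showed the largest difference in size among the members. It was at 23.5, 17.1, 18.3, 6.73 and 19.7 CPM in WT replicates 1 to 5. The lowest, median and highest libraries were at 16.0, 17.4 and 21.9 CPM in hTau and at 9.43, 12.5 and 20.1 CPM in CgA-KO/hTau. Of the 6 CgA-KO/hTau libraries, replicate 4 lay inside the hTau range and the others lay below it. The log2 fold change was -0.45 (95% interval -0.92 to 0.02), with an unadjusted p of 0.0577 and an adjusted p of 0.194 (edgeR). Gm20604, a read-through gene annotated over Moap1 and its neighbour Gon7, was lower in CgA-KO/hTau by the same test (log2 fold change -0.38, standard error 0.11, adjusted p = 0.0365, edgeR), at 20.3 to 32.8 CPM against 31.1 to 37.1 CPM in hTau. Gm20604 and another gene, Gm28051, each cover all 1432 bases of Moap1 on its strand. Gm20604 also overlaps 706 bases of Ubr7 on the other strand. Reads of these overlapping genes may have been split between them.

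Ubr7, Btbd7 and Unc79 lie beyond Moap1. Ubr7 (ENSMUSG00000041712.8, 102757967 to 102777707, plus strand), a ubiquitin ligase of the N-recognin family, was at 25.7 to 39.2 CPM in WT, 38.2 to 43.8 CPM in hTau and 28.9 to 44.3 CPM in CgA-KO/hTau. Its log2 fold change from hTau to CgA-KO/hTau was -0.10 (95% interval -0.33 to 0.14). Btbd7 (ENSMUSG00000041702.8, 102780797 to 102878471, minus strand), a BTB domain gene of branching morphogenesis, was at 30.4 to 34.1 CPM in CgA-KO/hTau and 29.7 to 34.3 CPM in hTau. The ranges of Btbd7 almost coincided, and its interval, -0.14 to 0.21 around a log2 fold change of 0.04, was the narrowest of the 10. Unc79 (ENSMUSG00000021198.17, 102948859 to 103184065, plus strand), a subunit of the NALCN sodium leak channel complex, was at 67.8 to 87.3 CPM in CgA-KO/hTau and 73.1 to 89.2 CPM in hTau, with a log2 fold change of -0.02 (95% interval -0.20 to 0.17). In that order the genes had adjusted p-values of 0.617, 0.817 and 0.923 (edgeR).

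**Figure D2:**
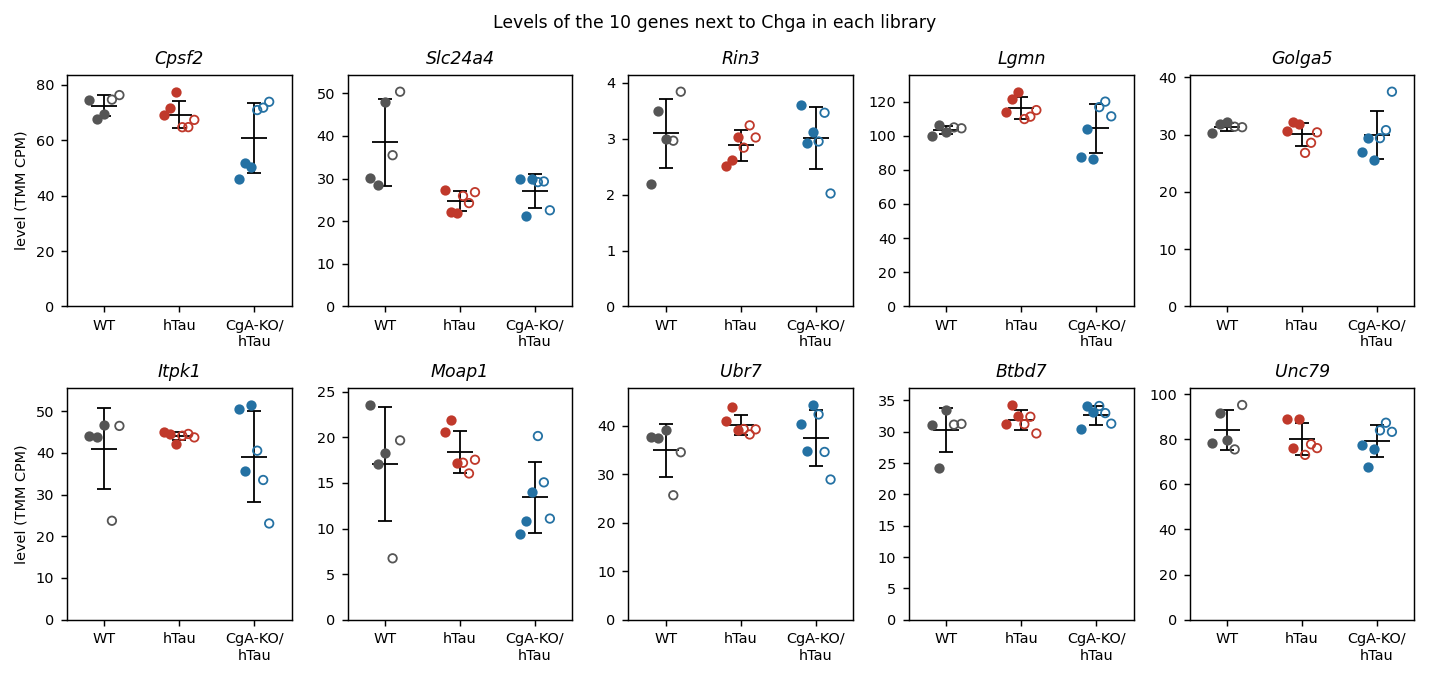
Level of each gene in TMM CPM (vertical axis, from 0) in the 5 WT, 6 hTau and 6 CgA-KO/hTau libraries, with bars for the mean and SD. Filled points are libraries with Ddx3y above 1 CPM and open points the others. Cpsf2 in CgA-KO/hTau falls into 3 libraries at 45.9 to 52.0 CPM and 3 at 70.9 to 73.9 CPM, and Slc24a4 in WT lies above all hTau libraries.

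When CgA-KO/hTau was compared with WT, again 0 of the 10 neighbours had an adjusted p under 0.05, against 6.46% of all genes (edgeR). An unadjusted p under 0.05 was found for 2 of the 10, Slc24a4 and Cpsf2. DESeq2 called 1 member, Slc24a4, and weighted limma voom called 0. The libraries overlapped for every member, where they did not overlap for 3.60% of all genes. The members' median log2 fold change was -0.07, beside 0.01 for all genes. Both comparisons of CgA-KO/hTau share the CgA-KO/hTau libraries, and this one also contains the Tau transgene on one side only.

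The remaining comparison, hTau with WT, holds Chga intact on both sides. Here 1 of the 10 members, Slc24a4, had an adjusted p under 0.05, against 5.90% of all genes (edgeR), and DESeq2 and weighted limma voom each called 1. For 2 of the 10, Slc24a4 and Lgmn, the hTau and WT libraries did not overlap, against 9.52% of all genes.

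Slc24a4 (ENSMUSG00000041771.15, 102128733 to 102267091, plus strand) encodes NCKX4, a potassium-dependent sodium-calcium exchanger, and lies 287878 bases from Chga. It was at 30.2, 28.4, 48.0, 35.5 and 50.4 CPM in WT replicates 1 to 5. The lowest, median and highest hTau libraries were at 21.9, 25.1 and 27.3 CPM, all below every WT library. Those of CgA-KO/hTau were at 21.3, 29.2 and 30.0 CPM, which overlapped both genotypes. The level in hTau was lower than in WT by a log2 fold change of -0.64 (standard error, SE, 0.15, 95% interval -0.96 to -0.33, adjusted p = 0.0165, edgeR), a change of -35.9%. The log2 fold change from WT to CgA-KO/hTau was -0.51 (SE 0.15, adjusted p = 0.0507, edgeR), and that from hTau to CgA-KO/hTau was 0.13 (95% interval -0.17 to 0.43, adjusted p = 0.586, edgeR). Slc24a4 was thus lower in hTau, with Chga intact, than in WT, and the difference between hTau and CgA-KO/hTau was within the spread between libraries.

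Striatal markers moved with Slc24a4 in some libraries and not in others. In CgA-KO/hTau replicates 1 and 3, striatal markers summed to 1400 and 1428 CPM and Slc24a4 was at 30.0 CPM in both. In CgA-KO/hTau replicates 4, 5 and 6 they summed to 158, 169 and 170 CPM, with Slc24a4 at 29.2, 29.3 and 22.6 CPM. In CgA-KO/hTau replicate 2 they summed to 306 CPM, with Slc24a4 at 21.3 CPM. WT replicate 4 had the lowest striatal sum in WT, 626 CPM, and Slc24a4 at 35.5 CPM. WT replicates 1 and 2 had sums of 819 and 778 CPM, with Slc24a4 at 30.2 and 28.4 CPM. WT replicates 3 and 5, the WT libraries highest in Slc24a4, also had the highest summed striatal level, at 2472 and 2273 CPM, and no hTau library was above 167 CPM. With the striatal marker score as a covariate, the log2 fold change of Slc24a4 from WT to hTau was -0.29 (adjusted p = 0.417, edgeR). The call was also lost without WT replicate 5 (-0.53, adjusted p = 0.0665, edgeR) and with hTau replicates 4 to 6, and CgA-KO/hTau replicates 1 and 3, averaged as close libraries (-0.67, adjusted p = 0.0748, edgeR), and it held without each of the 16 other libraries. The part of striatal tissue in the difference was not tested, and in bulk RNA fewer cells of a type and less RNA per cell cannot be told apart. Choroid plexus markers, of which 3 of 5 were lower in hTau than in WT, summed to 13.5 to 17.8 CPM in 4 WT libraries and to 1095 CPM in WT replicate 5, against 4.13 to 5.92 CPM in hTau.

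Lgmn was higher in each hTau library than in each WT library, but the difference was small and did not pass the test, with a log2 fold change of 0.17 (95% interval -0.02 to 0.36, adjusted p = 0.310, edgeR). None of the other 8 members had an unadjusted p under 0.05 in hTau vs WT, and their log2 fold changes ran from -0.11 for Rin3 to 0.20 for Ubr7.

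Cpsf2 (ENSMUSG00000041781.10, 101975988 to 102006424, plus strand), a subunit of the complex that cleaves and polyadenylates mRNA precursors, is the farthest member, 548545 bases from Chga. Its first 1081 bases overlap Ndufb1 on the other strand, and with the strand setting not given, reads there cannot be told apart. It was at 74.4, 67.7, 69.5, 74.7 and 76.3 CPM in WT. The lowest, median and highest hTau libraries were at 64.7, 68.3 and 77.6 CPM. In CgA-KO/hTau, replicates 1 to 3 were at 45.9, 52.0 and 50.5 CPM and replicates 4 to 6 at 70.9, 71.8 and 73.9 CPM. The CgA-KO/hTau libraries thus fell into a low set, below every library of the other genotypes, and a set within the hTau range. Over all 6 libraries the log2 fold change was -0.19 against hTau (95% interval -0.43 to 0.05, adjusted p = 0.297, edgeR) and -0.25 against WT (95% interval -0.50 to -0.0026, adjusted p = 0.224, edgeR).

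The low set of Cpsf2 is the set of CgA-KO/hTau libraries with Ddx3y above 1 CPM, and the comparison was repeated within libraries with and without Ddx3y, a split chosen with these data known. The p-values of this split are therefore no independent support for a difference between the sets. Within the libraries with Ddx3y, Cpsf2 was lower in CgA-KO/hTau than in hTau by a log2 fold change of -0.56 (SE 0.08, adjusted p = 0.000256, edgeR, 3 libraries a genotype) and lower than in WT by -0.51 (SE 0.08, adjusted p = 0.00069, edgeR). Within the libraries without it the log2 fold changes were 0.14 (95% interval -0.03 to 0.31) against hTau and -0.07 (95% interval -0.25 to 0.12) against WT. The difference between both sets was itself past the test, at -0.70 against hTau (SE 0.11, adjusted p = 0.00196, edgeR) and at -0.45 against WT (SE 0.12, adjusted p = 0.0421, edgeR). The first was called without each of the 17 libraries in turn, and the second without only 4 of the 17. These refits share the choice of the split and are no independent support either. CgA-KO/hTau replicates 1 and 3 in the set with Ddx3y, and hTau replicates 4 to 6 in the set without it, were libraries close to each other. With each of these averaged to 1 sample, Cpsf2 was still called within the libraries with Ddx3y, at -0.53 against hTau and -0.49 against WT (adjusted p = 0.0103 and 0.0225, edgeR), but the difference between the sets was not, at -0.68 and -0.42 (adjusted p = 0.133 and 0.211, edgeR), where 15 and 5 genes were called in all.

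Lgmn followed the same split against hTau. CgA-KO/hTau replicates 1 to 3 were at 87.4, 104 and 86.3 CPM, and hTau replicates 1 to 3 at 114, 122 and 126 CPM. Within these libraries the log2 fold change was -0.38 (SE 0.08, adjusted p = 0.0046, edgeR), and within the others it was 0.05 (95% interval -0.13 to 0.23). The difference between both sets was -0.43 (SE 0.12, adjusted p = 0.0304, edgeR) and was called without 9 of the 17 libraries. With the close libraries averaged, neither was called, at -0.33 within the libraries with Ddx3y and -0.39 for the difference (adjusted p = 0.0729 and 0.402, edgeR). Moap1 was lower within the libraries with Ddx3y by -0.80 (95% interval -1.43 to -0.17), which did not pass the correction (adjusted p = 0.0616, edgeR).

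**Figure D3:**
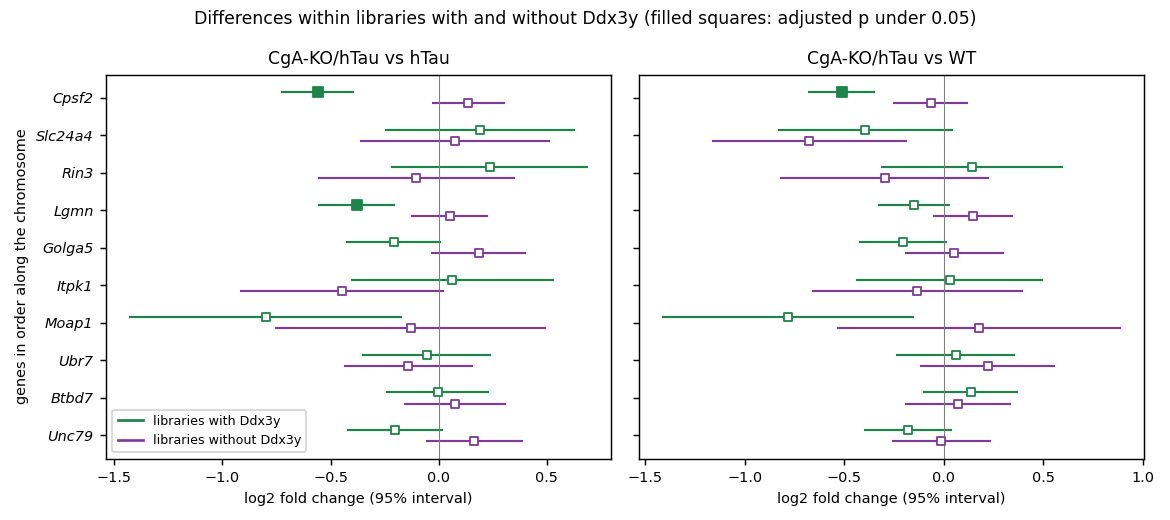
Log2 fold changes (squares) with 95% intervals (lines) of the 10 genes within libraries with Ddx3y above 1 CPM (green) and below it (purple), for CgA-KO/hTau vs hTau and vs WT. The filled squares, with an adjusted p under 0.05, are Cpsf2 at -0.56 and Lgmn at -0.38 against hTau and Cpsf2 at -0.51 against WT, each in the libraries with Ddx3y.

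Calls were common among all genes in the same split. Within libraries with Ddx3y, 2 of the 10 members were called in CgA-KO/hTau vs hTau against 25.0% of all genes, and 1 of the 10 in CgA-KO/hTau vs WT against 16.5%. The difference between the sets was called for 2 of the 10 members against hTau, where 11.7% of all genes were called, and for 1 of the 10 against WT, where 5.47% were. Within libraries without Ddx3y, 0 of the 10 were called in CgA-KO/hTau vs hTau, against 1.72% of all genes, and 0 in CgA-KO/hTau vs WT, against 5.45% (edgeR), although Slc24a4 had an unadjusted p of 0.0105 there. In hTau vs WT, 0 of the 10 were called with Ddx3y, against 1.21%, and 1 of the 10, Slc24a4 at -0.75, without it, against 11.9%, where WT had 2 libraries.

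The 3 CgA-KO/hTau libraries with Ddx3y also held the most mitochondrial counts, as given above, and had a summed striatal level of 306 to 1428 CPM against 158 to 170 CPM in the other 3. Without these 3 libraries the log2 fold change from hTau to CgA-KO/hTau was 0.05 for Cpsf2 and -0.01 for Lgmn (adjusted p = 0.755 and 0.944, edgeR). The summed levels of 9 of the 10 marker lists also separated these sets of 3 without overlap, all but that of oligodendrocyte precursors. Astrocyte markers summed to 1898 to 2248 CPM in the CgA-KO/hTau libraries with Ddx3y against 1040 to 1217 CPM in those without, and to 1094 to 1416 CPM in hTau. Oligodendrocyte markers summed to 2513 to 2943 CPM against 1507 to 1608 CPM, and pan-neuronal markers to 5099 to 8320 CPM against 9014 to 13475 CPM. Microglia markers, of which 0 of 8 were called in CgA-KO/hTau vs hTau, summed to 241 to 267 CPM against 158 to 206 CPM, the latter below every WT and hTau library (224 to 282 CPM). Ddx3y, the mitochondrial share and the makeup of the tissue cannot be told apart among the CgA-KO/hTau libraries.

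**Figure D4:**
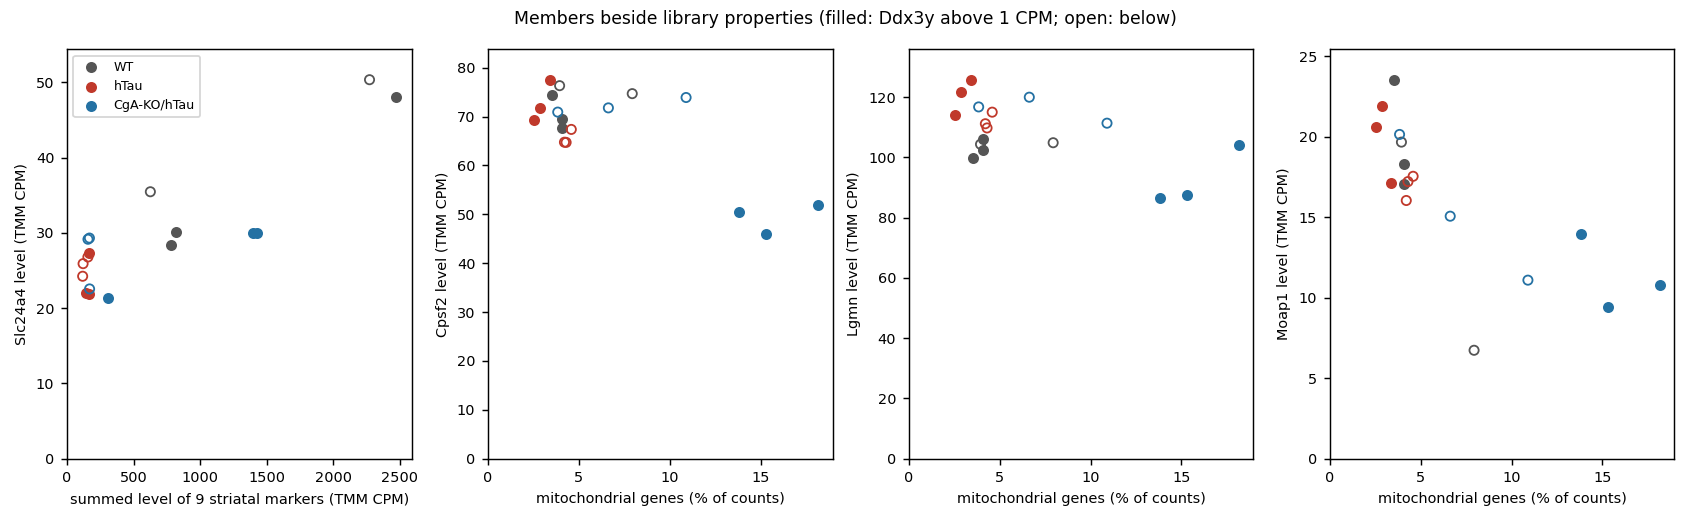
Level of Slc24a4 against the summed level of 9 striatal markers, and levels of Cpsf2, Lgmn and Moap1 against the share of counts from mitochondrial genes, 1 point a library (filled: Ddx3y above 1 CPM). The 3 filled CgA-KO/hTau points at 13.8% to 18.2% mitochondrial counts are lowest in Cpsf2, and the WT points at 2273 and 2472 CPM of striatal markers are highest in Slc24a4.

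The 10 members are a part of the 34 genes tested within 1 Mb of Chga, Chga left out. Of these 34, 3 were called in CgA-KO/hTau vs hTau (8.82%, beside 9.72% of all genes), 2 in CgA-KO/hTau vs WT (5.88%, beside 6.46%) and 1 in hTau vs WT (2.94%, beside 5.90%). All 3 calls against hTau were among the 24 genes that are not members (12.5%). In CgA-KO/hTau vs hTau the called genes were Gm20604, given above, Gm37019, an uncharacterised transcript whose span lies inside Itpk1 on the same strand, so that reads of both cannot be told apart, and Asb2, an adaptor of a ubiquitin ligase. Gm37019 was higher by a log2 fold change of 1.45 (SE 0.44, adjusted p = 0.0468, edgeR), at 0.0866 to 0.392 CPM against 0.0489 to 0.202 CPM in hTau. Asb2 was lower by -1.14 (SE 0.29, adjusted p = 0.0228, edgeR), at 0.635 to 1.65 CPM against 1.62 to 3.17 CPM in hTau. None of these 3 calls held with the replicate block, with the close libraries averaged, with the mitochondrial covariate, without CgA-KO/hTau replicates 1 to 3 or within libraries without Ddx3y (0 of 3 in each, edgeR). With 1 library left out in turn, Gm37019 was called in 4 of 17 fits, Gm20604 in 8 and Asb2 in 15.

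In CgA-KO/hTau vs WT the called genes were Ndufb1 and Ppp4r4. Ndufb1, named so in the count table but annotated in GENCODE as a non-coding RNA of a bidirectional promoter, overlaps the start of Cpsf2 on the other strand. It was at 20.1 to 41.6 CPM against 15.7 to 27.5 CPM in WT and was higher by a log2 fold change of 0.67 (SE 0.18, adjusted p = 0.0325, edgeR). Ppp4r4, a regulatory subunit of protein phosphatase 4, was at 35.4 to 47.1 CPM against 45.8 to 63.4 CPM in WT and was lower by -0.41 (SE 0.11, adjusted p = 0.0342, edgeR). The libraries of the compared genotypes overlapped for each of these 5 genes. Neither call held with the replicate block, with only both genotypes in the fit, with the close libraries averaged or with the mitochondrial covariate, and each held without 11 of the 17 libraries in turn.

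**Figure D5:**
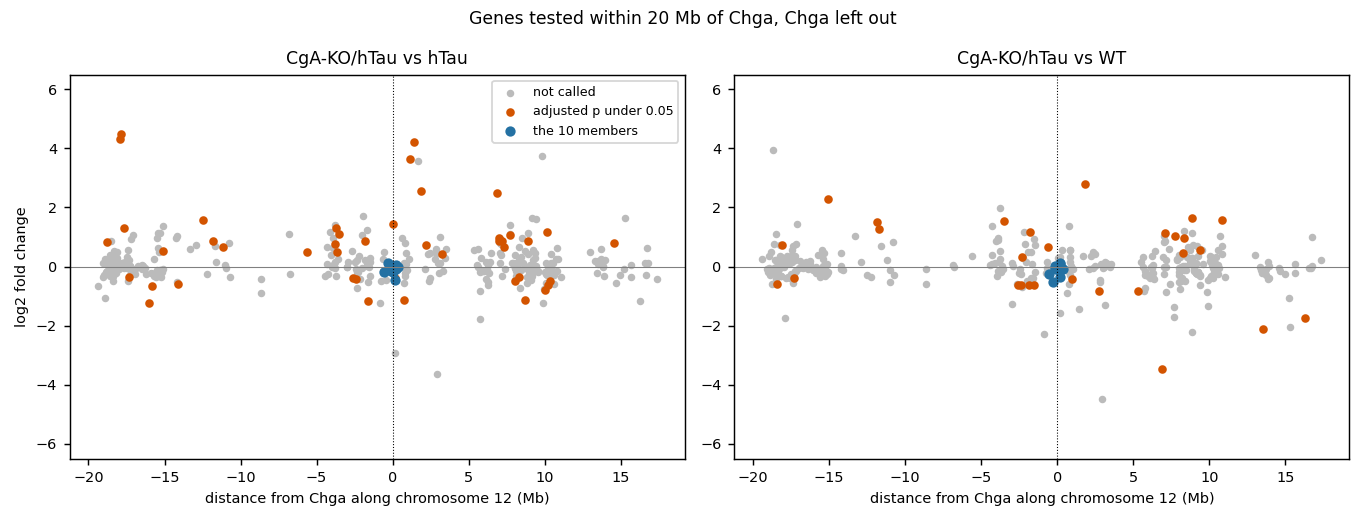
Log2 fold change (vertical) of each gene tested within 20 Mb of Chga against its distance from Chga along chromosome 12 (horizontal, Mb), for CgA-KO/hTau vs hTau and vs WT. The 10 members (blue) lie within 0.5 of 0 against hTau, and orange points mark an adjusted p under 0.05.

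Genes related to each member by family or pathway lie elsewhere in the genome for the most part, and their lists were read beside the members. Among 14 apoptosis and Pnma genes related to Moap1, 2 were called higher and 3 lower in CgA-KO/hTau than in hTau, where 9.72% of all genes were called. The list's median log2 fold change was -0.19. The lower genes included Pnma2 (-2.26, standard error 0.21, adjusted p = 6.28e-06, edgeR) and Pnma8a (-0.49, standard error 0.11, adjusted p = 0.0153, edgeR), paralogs of Moap1. Bid was also lower (-0.66, standard error 0.17, adjusted p = 0.0253, edgeR). The higher genes were Bcl2 (0.41, standard error 0.09, adjusted p = 0.00954, edgeR) and Trim39 (0.67, standard error 0.20, adjusted p = 0.0424, edgeR). Against WT, 1 of the 14 was higher and 4 were lower, where 6.46% of all genes were called.

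Of the other lists, 1 or 2 genes each or none were called in CgA-KO/hTau vs hTau, where 9.72% of all genes were. The called genes are named as a description and not as a result about a family. Among 11 inositol phosphate kinases, Ipmk was higher (1.19, standard error 0.32, adjusted p = 0.027, edgeR). Among 15 golgins and Golgi tethers, Golga7b was lower at -0.45, and among 15 lysosomal cysteine proteases and cystatins, Ctsb, the gene of cathepsin B, was lower at -0.49 (adjusted p = 0.0179 and 0.0215, edgeR). Among 19 cleavage and polyadenylation factors, the list that holds the partners of Cpsf2, Cstf1 was lower at -0.30 and Papola higher at 0.43, and the list's median log2 fold change was 0.04. Among 8 N-recognin ubiquitin ligases Ubr4 was lower at -0.37, and among 11 BTB domain genes Btbd11 was lower at -1.23. Among 22 Alzheimer risk genes of other loci, Sorl1 was lower at -0.70 and Fermt2 higher at 0.50. Among 16 genes of the Rab5 group, 12 sodium-calcium exchangers and 2 genes of the NALCN complex, 0 were called in CgA-KO/hTau vs hTau (edgeR), although Slc24a3, the gene of a related exchanger, was lower in both other comparisons, at -0.55 in CgA-KO/hTau vs WT and -0.33 in hTau vs WT. No list was compared with other genes by a test of its own.

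The libraries of the members with the smallest p in CgA-KO/hTau vs hTau, Moap1 and Lgmn, were also set beside those of all other genes tested. Over the 17 libraries, Pearson's r of log2(CPM + 1) with Moap1 was highest for Edc4 (0.956), Ighmbp2 (0.948) and Larp6 (0.948), and with Lgmn for Ss18l1 (0.928), Abcf2 (0.921) and Snrpn (0.918). These values describe likeness across libraries that share depth and tissue composition.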

How the data were processed

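RNA from the prefrontal cortex of 17 mice was sequenced. Per the submitters' processing notes, reads were trimmed with Trimmomatic 0.39, aligned to mm10 with STAR 2.7.10b and quantified with StringTie 1.3.6. The annotation release and strand setting are not given in the sources used here. The authors deposited raw counts per gene, in which the value 3 was more frequent than 1, 2, 4 and 5 in 13 of 17 libraries, as a conversion of StringTie coverage to reads can leave, so that low counts are not taken as single reads. Columns of the authors' own comparisons were not used.

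Genotypes were taken from the labels. P-values measure only the spread between these samples, which may in part be technical. Counts were filtered with filterByExpr, scaled by TMM and fitted with edgeR 4.0.16 (R 4.3.3) by the quasi-likelihood test over all 3 genotypes, with Benjamini-Hochberg adjustment over 23062 genes and a threshold of 0.05. The common biological coefficient of variation was 0.316. CPM are counts scaled to the TMM library size (the cpm function of edgeR). Positions were taken by gene identifier from GENCODE M21 (52029 of 56953 matched), and promoters from RefSeq. On simulated counts for CgA-KO/hTau vs hTau with 200 genes changed by 1 on the log2 scale, edgeR recovered 145 with 2 false calls among 22602 genes, and DESeq2 1.42.0 recovered 169 with 31 among 23062 genes. No member differed by more than 0.45 in that comparison, so this recovery does not give the power at the members' sizes. The simulation held no differences in tissue makeup between libraries. The members and lists were chosen with earlier results of these data known. The genes named were the 10 members and Chga, the other genes within 1 Mb called in a comparison of CgA-KO/hTau (at most 8), the called genes of a list (at most 3), and the 3 genes most like each of the 2 members with the smallest p. For the list related to Moap1, every gene called in CgA-KO/hTau vs hTau was named. Any other gene named was chosen after its values were seen. Alternatives were DESeq2 and its size factors, limma 3.58.1 (voom with sample quality weights), no filter, 2 genotypes a fit, a replicate block, averaged close libraries, striatal, Ddx3y and mitochondrial covariates, and libraries left out or split.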

Additional observations from a re-analysis of the deposited data

Results flagged for a closer look

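The level of each of the 10 genes was examined in each of the 3 genotypes for a library far from the rest, by Dixon's test at the 95% level, which chance alone meets in about 1 of 20 such groups. Of the 30 groups, 2 held one. Itpk1 was at 23.7 CPM in WT replicate 4, against 43.9 to 46.7 CPM in the other WT libraries. WT replicate 4 is the shallowest library, with 8838334 counts. Btbd7 was at 24.3 CPM in WT replicate 2, against 31.1 to 33.5 CPM in the other WT libraries.

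The change between genotypes was called different between libraries with and without Ddx3y for 3 results, in a split chosen with these data known. Its p-values are therefore no independent support. For Cpsf2 the log2 fold change from hTau to CgA-KO/hTau was lower by -0.70 in the libraries with Ddx3y than in those without (adjusted p = 0.00196, edgeR), and that from WT to CgA-KO/hTau by -0.45 (adjusted p = 0.0421, edgeR). For Lgmn the difference from hTau to CgA-KO/hTau was -0.43 (adjusted p = 0.0304, edgeR). With the close libraries averaged to 1 sample each, none of the 3 was called by edgeR (0 of 3), although each had an unadjusted p under 0.05, and the values were -0.68, -0.42 and -0.39 in the same order. Over all genes, 11.7% were called in the same test against hTau and 5.47% against WT.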

How the results depend on the processing

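In CgA-KO/hTau vs hTau, 0 of the 10 members were called under every alternative except within libraries with Ddx3y. Of 390 values of a member under an alternative other than leaving out a library, 324 kept their direction and their side of the threshold, 55 changed sign, 8 gained a call and 3 lost it. No value that changed sign was called, and none was beyond 0.28. The calls gained were those within libraries with Ddx3y, Lgmn and Cpsf2 against hTau (-0.38 and -0.56) and Cpsf2 against WT (-0.51), and beside them Cpsf2 with the striatal covariate (-0.52 in CgA-KO/hTau vs WT and -0.51 in hTau vs WT), Itpk1 with the striatal covariate in hTau vs WT (0.77), and Slc24a4 in CgA-KO/hTau vs WT with DESeq2 (-0.50) and with Ddx3y as a covariate (-0.52). Slc24a4 was also called in that comparison without WT replicate 1, 2 or 4. Those lost were of Slc24a4 in hTau vs WT, with the striatal covariate (-0.29), with the close libraries averaged (-0.67) and within libraries with Ddx3y (-0.58). The cause of these changes was not tested.

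Of the members, 0 was called in CgA-KO/hTau vs hTau, and this became 2 within libraries with Ddx3y. Of the members, 0 was called in CgA-KO/hTau vs WT, and this became 1 with DESeq2, with the striatal covariate, with Ddx3y as a covariate and within libraries with Ddx3y. Of the members, 1 was called in hTau vs WT, and this became 0 with the close libraries averaged and within libraries with Ddx3y and 2 with the striatal covariate. Within 1 Mb of Chga, calls in CgA-KO/hTau vs hTau were 3 and became 5 with DESeq2 and with only the 2 genotypes in the fit, 0 with the replicate block, with the close libraries averaged, with the mitochondrial covariate, without CgA-KO/hTau replicates 1 to 3 and within libraries without Ddx3y, 1 with the striatal covariate, 6 with weighted limma voom and 8 within libraries with Ddx3y. Within 1 Mb of Chga, calls in CgA-KO/hTau vs WT were 2 and became 1 with no filter and within libraries without Ddx3y, 4 with DESeq2 and within libraries with Ddx3y, 0 with only the 2 genotypes in the fit, with the replicate block, with the close libraries averaged and with the mitochondrial covariate and 8 with the striatal covariate. Within 1 Mb of Chga, calls in hTau vs WT were 1 and became 2 with DESeq2, 3 with only the 2 genotypes in the fit and without CgA-KO/hTau replicates 1 to 3, 0 with the close libraries averaged and within libraries with Ddx3y, 4 with the striatal covariate and 6 with weighted limma voom. Over all genes, calls in CgA-KO/hTau vs hTau were 2242 and became 3958 with DESeq2, 654 with the replicate block, 168 with the close libraries averaged, 1337 with the striatal covariate, 5229 with weighted limma voom, 101 with the mitochondrial covariate, 346 without CgA-KO/hTau replicates 1 to 3, 5770 within libraries with Ddx3y and 396 within libraries without Ddx3y. Over all genes, calls in CgA-KO/hTau vs WT were 1489 and became 2564 with DESeq2, 266 with only the 2 genotypes in the fit, 614 with the replicate block, 579 with the close libraries averaged, 4977 with the striatal covariate, 2458 with weighted limma voom, 274 with the mitochondrial covariate, 982 without CgA-KO/hTau replicates 1 to 3 and 3801 within libraries with Ddx3y. Over all genes, calls in hTau vs WT were 1361 and became 2396 with DESeq2, 2275 with only the 2 genotypes in the fit, 660 with the replicate block, 425 with the close libraries averaged, 3810 with the striatal covariate, 3967 with weighted limma voom, 2175 without CgA-KO/hTau replicates 1 to 3, 278 within libraries with Ddx3y and 2748 within libraries without Ddx3y. Leaving out 1 library in turn gave 0 to 0, 0 to 1 and 0 to 1 members, 0 to 5, 0 to 4 and 0 to 2 genes within 1 Mb, and 1019 to 3822, 627 to 2099 and 632 to 1658 of all genes, in the same order of comparisons.

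No log2 fold change that changed sign had an adjusted p under 0.05 over all 17 libraries. In CgA-KO/hTau vs hTau they were within libraries with Ddx3y Itpk1 at 0.064 and Btbd7 at -0.0050, with DESeq2's size factors Golga5 at 0.020 and Unc79 at 0.0094, with DESeq2 Golga5 at 0.0098 and Unc79 at 0.0029. There were also, in the same comparison, with only the 2 genotypes in the fit Golga5 at 0.0067, with the striatal covariate Golga5 at 0.085, Rin3 at -0.056, Slc24a4 at -0.017 and Unc79 at 0.0092, with the mitochondrial covariate Golga5 at 0.074, Lgmn at 0.022, Cpsf2 at 0.12, Moap1 at 0.16, Ubr7 at 0.0028 and Unc79 at 0.17. There were also, in the same comparison, without CgA-KO/hTau replicates 1 to 3 Golga5 at 0.10, Rin3 at -0.040, Cpsf2 at 0.050 and Unc79 at 0.071, within libraries without Ddx3y Golga5 at 0.19, Lgmn at 0.051, Rin3 at -0.10, Cpsf2 at 0.14 and Unc79 at 0.17, with no filter Btbd7 at -0.017. In CgA-KO/hTau vs WT they were with the striatal covariate Itpk1 at 0.28, Lgmn at -0.18 and Rin3 at 0.11, within libraries with Ddx3y Itpk1 at 0.031, Lgmn at -0.15 and Rin3 at 0.14, without CgA-KO/hTau replicates 1 to 3 Golga5 at 0.053 and Unc79 at 0.012. There were also, in the same comparison, within libraries without Ddx3y Golga5 at 0.054 and Moap1 at 0.18, with no filter Lgmn at -0.015, with the replicate block Lgmn at -0.0023 and Rin3 at 0.0056. There were also, in the same comparison, with Ddx3y as a covariate Lgmn at -0.00033, with weighted limma voom Lgmn at -0.027, with the mitochondrial covariate Cpsf2 at 0.0050, Moap1 at 0.20 and Unc79 at 0.077. In hTau vs WT they were with weighted limma voom Itpk1 at -0.0019 and Moap1 at -0.064, within libraries with Ddx3y Itpk1 at -0.033, Golga5 at 0.0040, Cpsf2 at 0.047 and Unc79 at 0.023, with the striatal covariate Lgmn at -0.15, Rin3 at 0.16 and Moap1 at -0.066. There were also, in the same comparison, within libraries without Ddx3y Btbd7 at -0.0039. Leaving out 1 library in turn gave -0.081 to 0.043 for Golga5 in CgA-KO/hTau vs hTau, -0.046 to 0.026 for Unc79 in CgA-KO/hTau vs hTau, -0.21 to 0.041 for Itpk1 in CgA-KO/hTau vs WT, -0.031 to 0.066 for Lgmn in CgA-KO/hTau vs WT, -0.15 to 0.052 for Rin3 in CgA-KO/hTau vs WT, -0.041 to 0.15 for Itpk1 in hTau vs WT and -0.092 to 0.23 for Moap1 in hTau vs WT.

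Weighted limma voom changed the tool and the weights of the libraries together. The replicate block took the number in the label as a block, without a source that pairs the animals. Correlations of same-numbered libraries ran from -0.23 to 0.44, and 3 of 17 libraries correlated best with their own number, so the numbers were not taken to pair the samples. The close libraries, averaged, were hTau replicates 4 to 6 and CgA-KO/hTau replicates 1 and 3. Over the 3761 genes that reached 500 counts in all libraries, the scaled median absolute deviation of their log2 ratio was 0.0523 to 0.0607 and 0.0980, against at least 0.146 in other pairs of a genotype. By the ordinary SD they stood less apart, at 0.216 to 0.243 and 0.255 against at least 0.263, and each library was kept as a sample. With them averaged, the difference between libraries with and without Ddx3y was no longer called, at -0.68 for Cpsf2 and -0.39 for Lgmn against hTau (adjusted p = 0.133 and 0.402, edgeR) and -0.42 for Cpsf2 against WT (adjusted p = 0.211, edgeR). The mitochondrial covariate, leaving out CgA-KO/hTau replicates 1 to 3 and the split by Ddx3y, with and without averaging, were chosen after seeing the data. Depth limited Rin3 most, with as few as 26 deposited counts in a library.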

Other observations

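Farther from Chga, at 1 to 5 Mb, 13 of the 71 genes tested were called in CgA-KO/hTau vs hTau, 10 higher and 3 lower (18.3%, beside 9.72% of all genes). The shares were 10.9% at 5 to 20 Mb (28 of 256) and 11.7% beyond 20 Mb on the same chromosome (61 of 523). In the same 1 to 5 Mb, 10 of the 71 genes were called in CgA-KO/hTau vs WT (14.1%) and 6 in hTau vs WT (8.45%). The count changed with the libraries and the fit. It was 3 of 73 without the 3 CgA-KO/hTau libraries with Ddx3y, 3 of 71 within the libraries without Ddx3y, 22 of 71 within those with it, 3 of 71 with the mitochondrial share as a covariate, 5 of 71 with the replicate block, 7 of 71 with the striatal covariate, 1 of 67 with the close libraries averaged and 6 to 18 with 1 library left out. No test compared the bands, and loss of Chga and strain sequence carried with the deleted allele cannot be told apart here.

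Among these 13, Serpina3n, a serine protease inhibitor of reactive astrocytes, was higher in CgA-KO/hTau by a log2 fold change of 2.56 (SE 0.20, adjusted p = 6.42e-07, edgeR). Its relatives Serpina1b and Serpina9 were higher by 3.64 and 4.21 (adjusted p = 0.0206 and 0.0312, edgeR), and since both the Serpina1 and the Serpina3 families hold near-identical copies, reads of such copies may have been split among them. Tdp1, a DNA repair enzyme, was lower at -0.39. Clmn and Eml5 were higher at 0.72 and 0.48. These genes were named after their values were seen.

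Of the cell type markers, 7 of 9 striatal markers were higher in CgA-KO/hTau vs hTau, where 9.72% of all genes were called. Of 5 choroid plexus markers 1 was higher, Clic6 (2.07). Of 6 astrocyte markers 2 were higher, the glutamate transporter gene Slc1a3 (0.51) and the water channel gene Aqp4 (0.67), and of 6 oligodendrocyte markers 1 was higher, the myelin gene Mobp (1.37). Of 5 pan-neuronal markers 1 was lower, the enolase gene Eno2 (-0.76). None of 5 cortical excitatory neuron, 8 microglia, 3 oligodendrocyte precursor, 5 endothelial or 4 blood markers was called by edgeR in that comparison.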
